A study of Homo sapiens with 24 samples.

Results

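The transcripts of 10 glycolytic enzymes, HK1, HK2, GPI, PFKL, ALDOA, TPI1, GAPDH, PGK1, ENO1 and LDHA, were followed through a time course of the human cell line K562. The members were a fixed list of gene symbols, each matched to its Ensembl identifier in the first column of the expression table, and all 10 were found among the 12285 genes of that table. K562 is an established leukemia line with erythroid features. The cells were synchronized by centrifugal elutriation, which sorts cells by size and so by cell cycle stage, and were then resuspended in RPMI with 10% bovine calf serum and P/S to begin the course. Sampling ran from 0 h to 46 h at intervals of 2 h, which gave 24 time points of 1 sample each, and no treatment, genotype or second cell line was compared. RNA was extracted with acid phenol and sequenced, and levels were deposited as FPKM, fragments counted on a transcript divided by its length and by the size of the library. This unit allows genes to be set beside each other.

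Glycolysis splits glucose into pyruvate in the cytosol, giving ATP and NADH. Lactate dehydrogenase then reduces pyruvate to lactate and returns the NAD+ that the pathway needs, which allows proliferating cells to run it at a high rate. Several of the genes are textbook targets of the hypoxia-inducible factor HIF-1 and of MYC, which bind short DNA elements near the gene start, and many steps have more than one isozyme gene. In bulk RNA, fewer cells of a type and less RNA per cell cannot be told apart.

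The replicate spread is unknown because each time point had 1 library, so p-values below measure only how far single libraries scattered about a curve and treat successive libraries as independent. The read depth is also unknown. Libraries did stand apart. The study named 16 h and 18 h as anomalous and 32 h as a milder case. HK1, GPI, PFKL, GAPDH, PGK1 and LDHA left their neighbours in the same direction at 6 h as at 32 h. HK2, ALDOA, TPI1 and ENO1 took opposite signs at these 2 libraries. At 22 h, 28 h and 30 h members also left the courses of their neighbours together, most clearly HK1 and ALDOA. These other 4 libraries were singled out from the values. Results are given with all 24 and with the other 17. Erythroid genes fixed as markers of the line were all present, 12 of 12. At 14 h the fetal globin gene HBG2 was at 3079 FPKM and the erythroid factor GATA1 at 137 FPKM. At 18 h they were at 533 FPKM and 49.2 FPKM, so the line's own markers moved in the same libraries. HBG2 shares reads with its near-identical copy HBG1. Of markers of other cells, the fibroblast gene COL1A2 lay between 1.70 and 3.94 FPKM, and 1 of 5 fibroblast, 2 of 5 lymphoid and 1 of 3 epithelial markers were in the table. The epithelial marker EPCAM had a median of 61.5 FPKM. It reached 114 FPKM at 18 h. CD3D, a T cell gene, went from 5.59 FPKM at 0 h to 12.9 FPKM at 44 h, and COL1A2 from 2.23 to 3.76 FPKM, so both were higher late in the course. The part of other cells in the courses below was not tested.

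The DNA around the members' starts is shown as context for the elements named above, and a link between these elements and the courses was not tested. RefSeq windows of 300 bases, 250 before and 50 after each annotated start, were read for the 10 genes on GRCh38.p14 and searched on both strands for ACGTG and GCGTG, the core of the HIF-1 element. The sequence CACGTG, to which MYC and its partner bind, contains the first of these cores. At least 1 match was found in 15 of the 21 windows, and each of the 10 genes had a match in at least 1 of its windows. The shares over all genes that follow are per window, and no share per gene is given to set beside the 10. Of all 35116 RefSeq windows of the same length, 48.4% held a match to either core, 21.4% held ACGTG, 36.5% held GCGTG and 7.26% held CACGTG. Windows of HK2, PGK1 and LDHA are printed because they held the most matches (6, 4 and 6). Each CACGTG was counted on both strands, so the windows of HK2 and LDHA show fewer marked stretches than matches. A window of HK1 is printed because 5 of its 7 windows held none. Capitals mark the matches on either strand, all 4 genes lie on the plus strand, and a match is a string of letters and not a shown binding site.
HK2, chr2:74834920-74835219: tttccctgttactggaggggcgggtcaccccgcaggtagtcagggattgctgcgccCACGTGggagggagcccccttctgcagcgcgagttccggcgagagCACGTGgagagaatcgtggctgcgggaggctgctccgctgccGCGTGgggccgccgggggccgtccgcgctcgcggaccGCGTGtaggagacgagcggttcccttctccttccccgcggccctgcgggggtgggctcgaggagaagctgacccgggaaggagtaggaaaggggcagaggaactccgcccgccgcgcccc
PGK1, chrX:78103998-78104297: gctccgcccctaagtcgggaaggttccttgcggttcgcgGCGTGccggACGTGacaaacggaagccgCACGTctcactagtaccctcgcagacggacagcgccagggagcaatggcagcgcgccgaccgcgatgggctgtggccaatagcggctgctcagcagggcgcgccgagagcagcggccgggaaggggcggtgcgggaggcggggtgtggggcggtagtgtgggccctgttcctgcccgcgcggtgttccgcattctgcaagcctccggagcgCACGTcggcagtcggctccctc
LDHA, chr11:18394313-18394612: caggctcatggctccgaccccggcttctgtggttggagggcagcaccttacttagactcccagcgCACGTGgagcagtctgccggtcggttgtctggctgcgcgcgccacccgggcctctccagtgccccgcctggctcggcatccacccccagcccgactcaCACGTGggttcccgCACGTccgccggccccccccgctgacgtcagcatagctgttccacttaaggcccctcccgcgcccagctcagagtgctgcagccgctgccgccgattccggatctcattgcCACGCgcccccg
HK1, chr10:69269750-69270049: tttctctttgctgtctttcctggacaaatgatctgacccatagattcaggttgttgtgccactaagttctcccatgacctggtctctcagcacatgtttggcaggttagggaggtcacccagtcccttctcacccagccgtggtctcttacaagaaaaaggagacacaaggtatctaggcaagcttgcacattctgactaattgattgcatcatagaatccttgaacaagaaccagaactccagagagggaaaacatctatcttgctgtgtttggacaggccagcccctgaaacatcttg

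GAPDH, ENO1 and ALDOA were the most abundant of the enzymes, and HK2 was the least. GAPDH ranked 8 of all genes by mean FPKM, ENO1 20 and ALDOA 23. LDHA followed at 66, PGK1 at 129, HK1 at 253, TPI1 at 345 and GPI at 397. PFKL ranked 2925 and HK2 4915. Neighbours in this order were compared hour by hour. ALDOA was above LDHA, LDHA above PGK1, and GPI above PFKL at all 24 time points. The order of ENO1 and ALDOA held at 16 of 24 time points, and ALDOA was the higher of the pair at 0 h to 10 h, 14 h and 32 h. HK1 was above TPI1 at 20 time points and TPI1 above GPI at 20, so the levels of these 3 enzymes overlapped. GAPDH was below ENO1 only at 16 h and 18 h, the same time points at which PGK1 fell below HK1 and PFKL was below HK2. Together the 10 transcripts made up between 0.951% (18 h) and 1.51% (2 h) of the summed FPKM of the table, with a median of 1.26%.

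**Figure D1:**
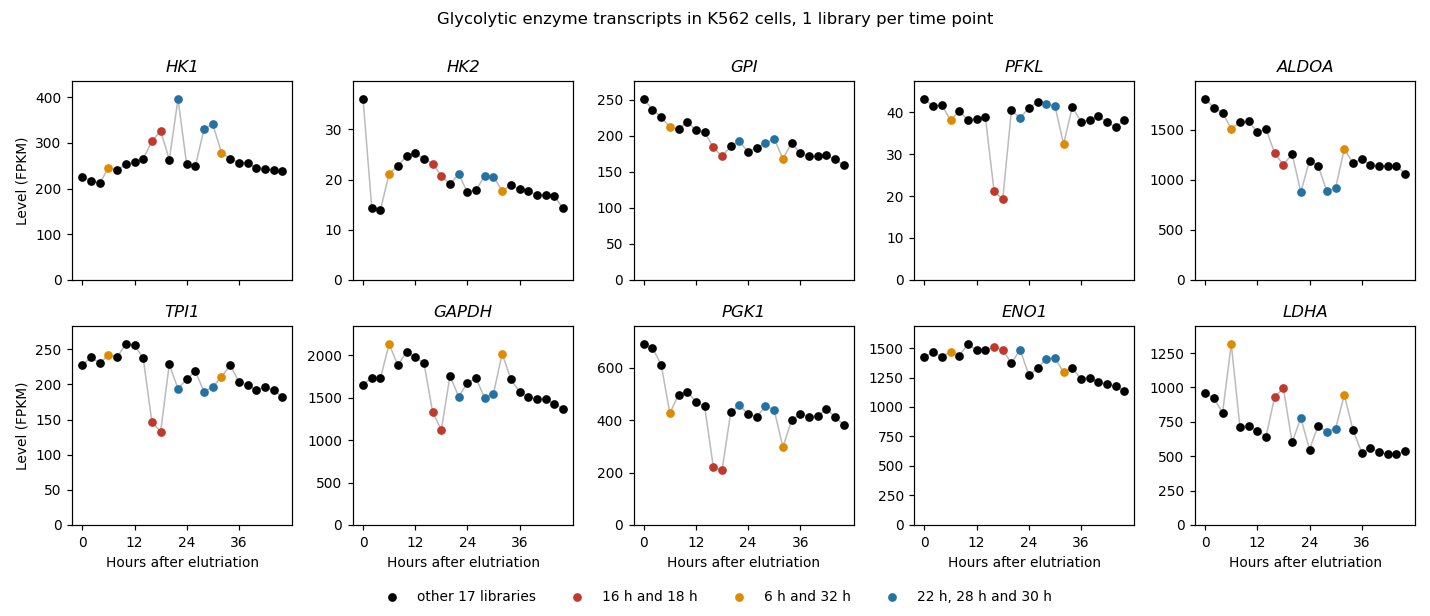
Levels of the 10 enzymes in FPKM (y axis, from 0 in each panel) against hours after elutriation (x axis), 1 point per library and no replicates. Black points are the 17 libraries not coloured. Colours mark the 16 h and 18 h, the 6 h and 32 h, and the 22 h, 28 h and 30 h libraries. Departures from neighbouring libraries include PFKL, TPI1, GAPDH and PGK1 (16 h and 18 h) and LDHA (6 h, 16 h, 18 h, 22 h and 32 h). Others are PGK1 and GAPDH (6 h and 32 h), PFKL (32 h), and HK1 and ALDOA (22 h, 28 h and 30 h).

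The hexokinases trap glucose in the cell as glucose 6-phosphate. HK1 (ENSG00000156515) lay between 212 FPKM at 4 h and 396 FPKM at 22 h, with a median of 255 FPKM. Among the 17 libraries it moved little, from 225 FPKM at 0 h to 238 FPKM at 46 h. HK2 (ENSG00000159399), the inducible isozyme, lay between 14.0 FPKM at 4 h and 36.1 FPKM at 0 h, with a median of 18.96 FPKM. Its course had 3 phases: a drop from 36.1 to 14.4 FPKM between 0 h and 2 h, a climb to 25.3 FPKM at 12 h, and a decline to 14.3 FPKM at 46 h. The first drop was 2.50-fold. The other 9 enzymes changed between 0 h and 2 h by ratios (2 h over 0 h) of 0.942 for GPI to 1.05 for TPI1. The counts that follow are on the log2(FPKM + 1) scale. Of all genes, 4.61% were at least 1.5-fold lower at 2 h than at 0 h, and HK2 was the 1 member among them. HK2 ranked 68 of 12253 for the size of the drop. Of 11 other glycolytic genes 1 was at least 1.5-fold down, of 4 transport genes 1 and of 8 control genes 1, and 1 control gene was as far up. Among 15 other genes known as HIF-1 targets 4 were down by 1.5-fold or more and 0 up, with a median step of -0.35 (log2). Among 11 genes of pyruvate entry to mitochondria 1 was as far down, and among 7 pentose phosphate genes 0. The low genes ENO3 (6.38 to 4.13 FPKM) and PDP1 (1.07 to 2.05 FPKM) passed 1.5-fold in plain FPKM but not on this scale. The glucose transporter SLC2A3 went from 37.3 to 17.6 FPKM over the same step, the enolase isozyme ENO2 from 13.1 to 7.52 FPKM and the regulatory kinase PFKFB4 from 17.4 to 10.9 FPKM. The HIF subunit EPAS1 went up from 1.03 to 3.595 FPKM, and the other glucose transporter SLC2A1 from 107 to 141 FPKM, which is less than 1.5-fold. The step rests on 1 library at 0 h.

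GPI, PFKL, ALDOA and TPI1 carry out the next steps, in which the sugar is isomerized, phosphorylated again and split. GPI (ENSG00000105220), which makes fructose 6-phosphate, lay between 159 FPKM at 46 h and 251 FPKM at 0 h, with a median of 187 FPKM. Its first library was its highest and its last the lowest. PFKL (ENSG00000141959), the liver-type subunit of phosphofructokinase, the main control point of the pathway, lay between 19.2 FPKM at 18 h and 43.1 FPKM at 0 h, with a median of 38.8 FPKM. PFKL was at 21.2 FPKM at 16 h, and outside these time points its lowest library was 32.4 FPKM at 32 h. ALDOA (ENSG00000149925), the aldolase that splits fructose 1,6-bisphosphate, lay between 876 FPKM at 22 h and 1805 FPKM at 0 h, with a median of 1198 FPKM. Its 3 lowest libraries were 22 h, 28 h and 30 h. TPI1 (ENSG00000111669), which interconverts the triose phosphates, lay between 133 FPKM at 18 h and 258 FPKM at 10 h, with a median of 209 FPKM.

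GAPDH, PGK1 and ENO1 act in the energy-yielding part of the pathway, and LDHA follows it. GAPDH (ENSG00000111640) makes NADH; it lay between 1122 FPKM at 18 h and 2134 FPKM at 6 h, with a median of 1666 FPKM. PGK1 (ENSG00000102144), which makes the first ATP of the pathway, lay between 208 FPKM at 18 h and 691 FPKM at 0 h, with a median of 428 FPKM, the widest range of the 10 (3.32-fold). ENO1 (ENSG00000074800), which makes phosphoenolpyruvate, had the narrowest range (1.35-fold), from 1136 FPKM at 46 h to 1534 FPKM at 10 h, with a median of 1413 FPKM. LDHA (ENSG00000134333), the lactate dehydrogenase subunit linked to lactate output, lay between 514 FPKM at 44 h and 1316 FPKM at 6 h, with a median of 697 FPKM. Its 4 libraries at 6 h, 16 h, 18 h and 32 h were at 1316, 934, 994 and 945 FPKM, where 8 h was at 712 FPKM and 34 h at 692 FPKM. Processed pseudogene copies that can share reads with members were listed at low levels for GAPDH (GAPDHP1), TPI1 (TPI1P1 and TPI1P2) and LDHA (LDHAP4 and LDHAP7). The highest of them, LDHAP7, had a median of 9.60 FPKM and was at 48.8 FPKM at 18 h, so the split of reads between it and LDHA is uncertain there.

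In FPKM as deposited, 5 of 10 members declined over the 2 days, and 8 of 10 once the libraries that stand apart were left out. With quantile normalized FPKM their median slope equalled that of all genes (both -0.02). The slope of log2(FPKM + 1) per 24 h was estimated by limma with a 24 h wave in the same fit, over all genes whose mean reached 1 FPKM; this scale understates changes of low genes. With all 24 libraries, 5 of 10 members fell and 0 rose at a Benjamini-Hochberg adjusted p of at most 0.05, where 8.82% of the 12253 genes fell and 13.4% rose. The median slope was -0.17 for the members and -0.01 for all genes. The steepest were ALDOA, with a slope of -0.39 ± 0.08 (SE; limma adjusted p = 0.000851), and LDHA, with -0.39 ± 0.10 (limma adjusted p = 0.0071). HK2 fell by 0.29 ± 0.09 (limma adjusted p = 0.0306), GPI by 0.24 ± 0.04 (limma adjusted p = 0.000113) and ENO1 by 0.19 ± 0.04 (limma adjusted p = 0.000798). The slopes of PGK1 (-0.15), GAPDH (-0.11), TPI1 (-0.10), HK1 (0.06) and PFKL (0.10) did not pass. The call for HK2 was lost without 0 h (slope -0.17, limma adjusted p = 0.101) and without 46 h (slope -0.27, limma adjusted p = 0.0673).

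Over the 17 libraries the slopes of TPI1, GAPDH and PGK1 passed as well. Then 8 of 10 members fell and 0 rose, against 12.6% of all genes that fell and 15.5% that rose. PGK1 had a slope of -0.34 ± 0.07 (SE; limma adjusted p = 0.00113), which is a level after 24 h of 0.791 times the earlier one. The ratios per 24 h of ALDOA and HK2 were 0.762 and 0.761. LDHA (0.815), GPI (0.829), ENO1 (0.874), GAPDH (0.876) and TPI1 (0.876) declined less. HK1 had a slope of 0.03 ± 0.04 (limma adjusted p = 0.611) and PFKL of -0.03 ± 0.03 (limma adjusted p = 0.452). Leaving out 16 h and 18 h alone gave the same 8 members, where 12.5% of genes fell. Abundance matters for this background. Of 994 genes whose mean reached 100 FPKM, 14.3% fell over 24 libraries and 37.7% over 17. Of the 8 members among them 4 and 7 fell. The scale of the libraries matters too. With quantile normalized FPKM 2 members fell, HK2 and LDHA, where 12.3% of genes did, and with upper-quartile scaling 4 fell, without HK2. The summed FPKM of the 10 went from 7315 at 0 h to 5124 at 46 h.

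**Figure D2:**
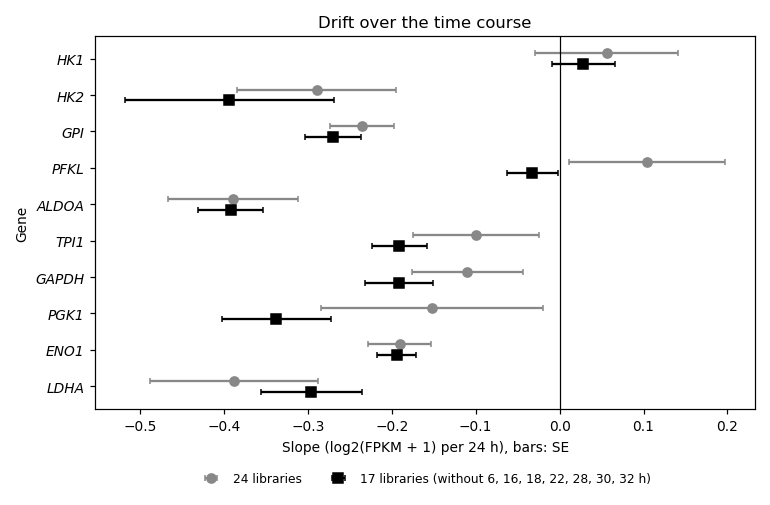
Slope of log2(FPKM + 1) per 24 h (x axis) for each enzyme (y axis); points are limma estimates and bars are their SE, grey circles from all 24 libraries and black squares from 17. All but HK1 and PFKL lie below 0 by more than 3 times their SE in the 17 libraries, and PFKL moves from 0.10 to -0.03 between the fits.

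Each library of the first day was also set beside the library 24 h later. ENO1 was lower on the second day in all 12 pairs, as were 1.26% of all genes, by a mean of 0.21 (log2; SD over pairs 0.11). GPI, ALDOA and LDHA were lower in 11 of 12 pairs, HK2 and TPI1 in 10, PGK1 in 9 and GAPDH in 8. HK1 and PFKL were lower in 6 of 12. In the 6 pairs that hold none of the 7 libraries, GPI, ALDOA, TPI1, PGK1, ENO1 and LDHA were lower in all 6, as were 7.77% of all genes.

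A 24 h rhythm in these transcripts depended on which libraries were used. By the JTK statistic, the rank order statistic the study used to find periodic genes, 2 of 10 members passed at an adjusted p of at most 0.05 where 13% of all genes did. These were GAPDH (permutation p adjusted by Benjamini-Hochberg, 0.0363) and PFKL (0.045). Both calls held only when 0 h, 12 h, 14 h or 20 h was left out, and were lost in part or whole when any of the other 20 libraries was. Without 16 h and 18 h, 1 member passed, LDHA (permutation adjusted p = 0.0318), where 16.2% of genes did. Over 17 libraries 0 passed, where 8.21% of genes did. At an unadjusted permutation p under 0.05 were 7 members, and the share of all genes at that level is not given. The limma wave, which allows for a slope at the same time, called 0 of 10 members, where it called 11.7% of genes. At an unadjusted limma p under 0.05 it had 2 members, again without a share of all genes. Without 16 h and 18 h it called TPI1 and GAPDH, 2 of 10, where it called 15.1% of genes. Their fitted peaks over all libraries were 7.20 h and 7.87 h.

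At 16 h and 18 h the enzymes split, with PGK1, PFKL, TPI1 and GAPDH low, LDHA high and the other 5 within 1.5-fold of their neighbours. PGK1 went from 452 FPKM at 14 h to 222 and 208 FPKM at 16 h and 18 h and back to 429 FPKM at 20 h. PFKL went from 38.9 to 21.2 and 19.2 FPKM and back to 40.4 FPKM. On the log2(FPKM + 1) scale, the mean distance from the line between 14 h and 20 h was -1.03 for PGK1, -0.94 for PFKL, -0.74 for TPI1, -0.59 for GAPDH and 0.63 for LDHA. The distances of HK1 (0.25), ALDOA (-0.19), GPI (-0.13), ENO1 (0.07) and HK2 (0.03) were smaller than 1.5-fold. Thus 4 members were at least 1.5-fold below their flanks, as were 16.8% of genes, and 1 was above, as were 23.9%. The members' median was -0.16 and that of all genes 0.14. These counts have no test, since each time point is 1 library. With upper-quartile scaling the median of all genes moved to -0.06, and with median scaling to 0.03. Under both scalings 4 members were past 1.5-fold below their flanks and LDHA was not past it above. The distances of all genes followed the GC content of their transcripts (Spearman correlation -0.57 over 12117 genes). For the members it was -0.30, over 10 genes, too few to call it weaker or stronger. With the GC trend of all genes removed, PGK1 was the 1 member past 1.5-fold, at -1.33, and PFKL was at 0.10. The members' median was then 0.13, and that of all genes was also 0.13.

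LDHA, PGK1 and GAPDH also left their flanks at 6 h and 32 h, and HK1 and ALDOA did so at 22 h, 28 h and 30 h. At 6 h and 32 h, LDHA was above its flanks by a mean of 0.61, the 1 member past 1.5-fold in a direction that 2.2% of genes took. No member was as far below, where 1.58% of genes were. PGK1 came nearest at -0.40, with -0.37 at 6 h and -0.44 at 32 h. GAPDH was above its flanks by 0.24 at 6 h and 0.23 at 32 h, and PFKL below by 0.11 and 0.35. At 22 h, 28 h and 30 h, HK1 was above by 0.62, 0.38 and 0.40 and ALDOA below by 0.48, 0.38 and 0.33 (log2), so the pair moved apart in all 3 libraries. LDHA was above by 0.44 at 22 h and within 0.08 of its flanks at 28 h and 30 h. Those flanks, 26 h and 34 h, were themselves at 723 and 692 FPKM, against 549 FPKM at 24 h and 527 FPKM at 36 h. The small distances of LDHA thus depend on the flanks used. The means of HK1 and ALDOA, 0.47 and -0.39, did not reach 1.5-fold, which 1.23% of genes passed upwards and 0.947% downwards. PFKL and GPI stayed within 0.10 of their flanks at 22 h, 28 h and 30 h. Over all 7 libraries ENO1 and GPI left their flanks least, by at most 0.17 and 0.16 in size.

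**Figure D3:**
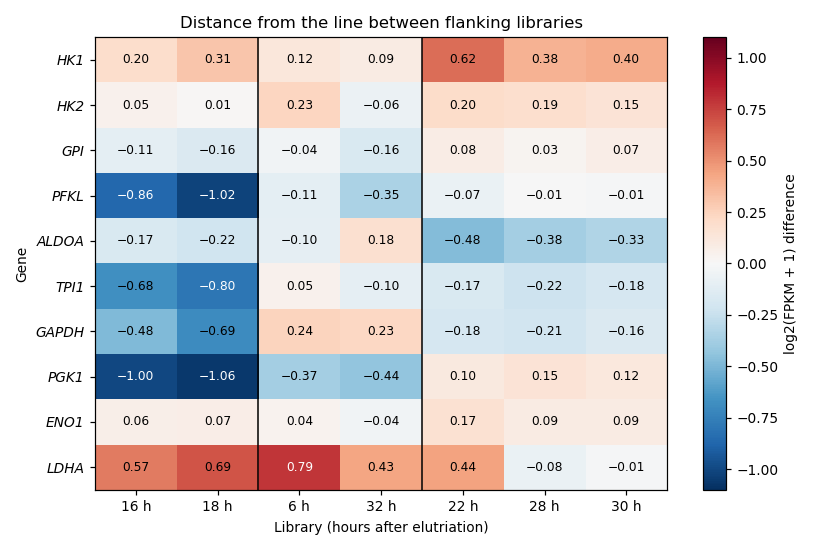
Distance of each enzyme (y axis) from the line between flanking libraries at the 7 libraries that stand apart (x axis, in hours), as a log2(FPKM + 1) difference printed in each cell; red is above and blue below. PGK1 and PFKL are near -1 at 16 h and 18 h, LDHA is at 0.79 at 6 h, and HK1 and ALDOA take opposite signs at 22 h, 28 h and 30 h.

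The members' courses had a positive correlation in most pairs, and no value for pairs of other genes is given to set beside this. Over the 22 libraries without 16 h and 18 h, Pearson's r of log2(FPKM + 1) had a median of 0.43 over the 45 pairs of members, and 37 of 45 were above 0. The points share the drift over time and the libraries, so r is a description without a test. TPI1 and GAPDH (0.88) and GPI and PGK1 (0.86) were most alike, and HK1 and ALDOA least (-0.73). Over 17 libraries the median was 0.54, TPI1 and ENO1 reached 0.98 and GPI and ALDOA 0.97, while HK1 and PGK1 were at -0.74. HK1 thus stood apart from its pathway in both sets of libraries, with r above 0.25 to none of the others. Outside the list, of 7159 genes whose mean reached 10 FPKM, the 5 most like the members' mean course over 22 libraries were RPL30 (0.947), ARPC1A (0.94), CBX3 (0.922), MRPL40 (0.919) and H3-3B (0.918).

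**Figure D4:**
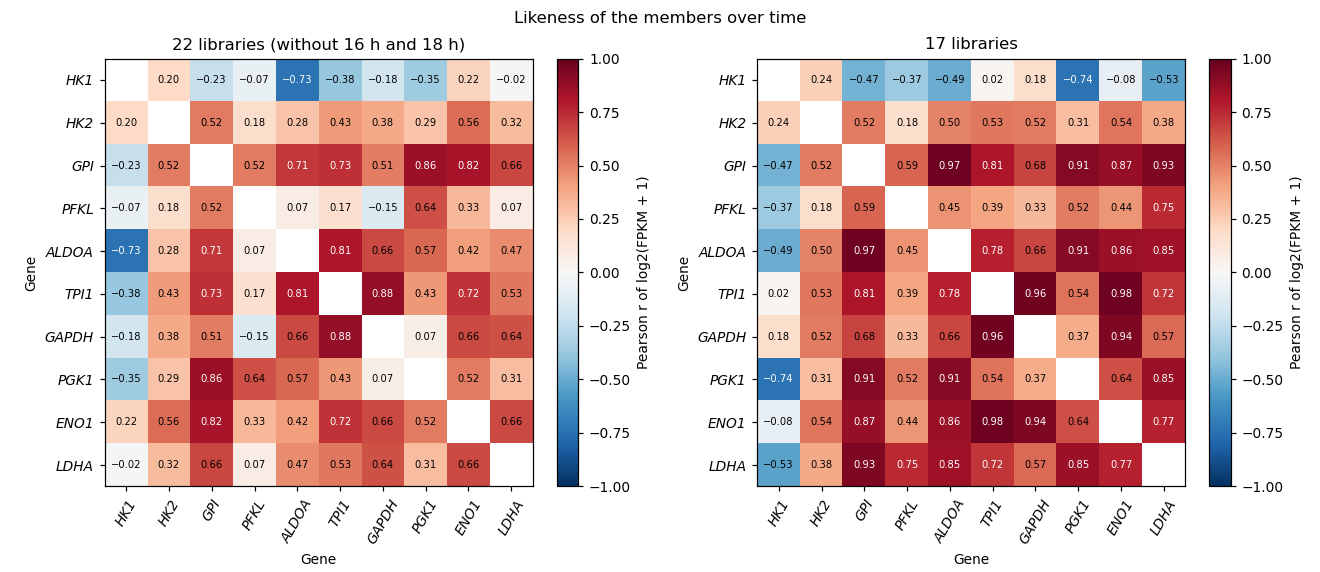
Pearson's r of log2(FPKM + 1) between each pair of enzymes (both axes), over 22 libraries on the left and 17 on the right; red is above 0 and blue below. HK1 is blue or pale against all others in both panels, and the block of GPI, ALDOA, TPI1, GAPDH, ENO1 and LDHA deepens on the right.

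Of 11 other glycolytic genes tested, 3 rose and 0 fell over 24 libraries (limma adjusted p at most 0.05), where 13.4% of all genes rose and 8.82% fell. Those that rose were the phosphofructokinase genes PFKM and PFKP and the muscle enolase ENO3, with slopes of 0.18, 0.17 and 0.20. Over 17 libraries 2 rose, PFKP and ENO3, and 0 fell. ALDOC, the brain-type aldolase, had a slope of -0.31 that did not pass (limma adjusted p = 0.0799). Without 16 h and 18 h it did, with a slope of -0.43 (limma adjusted p = 0.00546). LDHB, the other main subunit of lactate dehydrogenase, had a slope of -0.03 over 24 and 0.05 over 17 libraries and did not pass. The ratio of LDHA to LDHB was 1.49 at 0 h and 0.738 at 42 h, and was above 1 at 11 of 24 time points. The ratio of HK1 to HK2 was 6.24 at 0 h, the lowest of all, had a median of 14.3 and reached 18.8 at 22 h. ALDOA was 22.6 to 50.9 times the level of ALDOC and ENO1 109 to 366 times that of ENO2. PFKP was above PFKL at every time point, by 1.02 to 2.01 times. PKM and PKLR, the pyruvate kinases that complete the pathway, did not pass over 24 or 17 libraries, and their medians were 237 and 70.3 FPKM. Without 16 h and 18 h PKM passed with a slope of 0.22 (limma adjusted p = 0.0472). PGAM1, the phosphoglycerate mutase between PGK1 and ENO1, had a median of 11.5 FPKM and reached 39.9 FPKM at 18 h. PGAM1 and PKM were above their flanks at 16 h and 18 h by 1.55 and 1.17 (log2), opposite to PGK1.

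**Figure D5:**
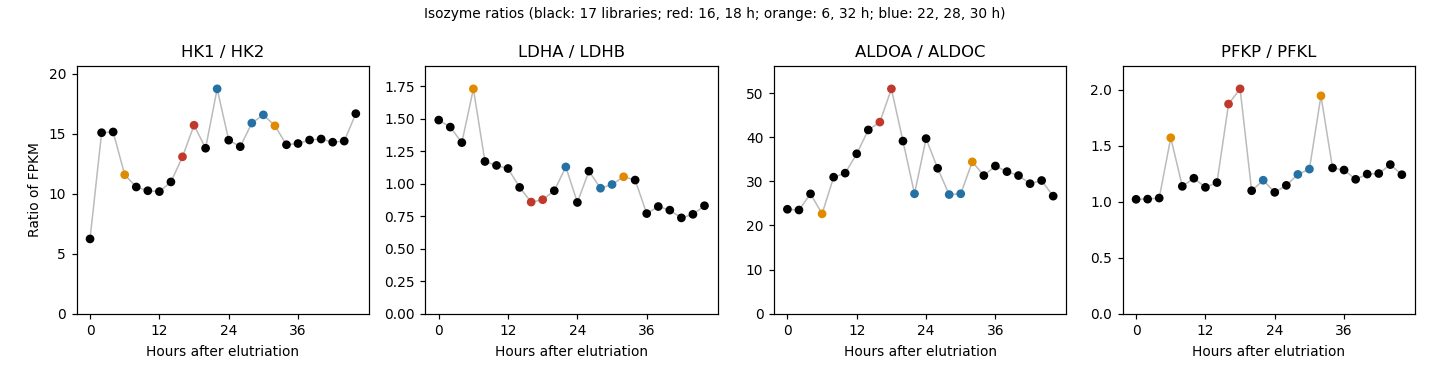
Ratio of FPKM between isozymes (y axis, from 0) against hours after elutriation (x axis), 1 point per library; black points are the 17 libraries, red 16 h and 18 h, orange 6 h and 32 h, blue 22 h, 28 h and 30 h. The ratio of HK1 to HK2 is lowest at 0 h (6.24), that of LDHA to LDHB goes from 1.49 at 0 h to 0.738 at 42 h, and that of PFKP to PFKL is highest at 18 h (2.01).

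Genes around the pathway are set beside the same shares of all genes, 13.4% that rose and 8.82% that fell over 24 libraries. Of 4 transport genes 1 rose, the glucose transporter SLC2A3 (slope 0.49, limma adjusted p = 0.00425). Its median was 32.0 FPKM, against 95.2 FPKM for the main glucose transporter SLC2A1, whose slope of -0.04 did not pass. Without 16 h and 18 h SLC2A1 fell (slope -0.19, limma adjusted p = 0.0122), but over 17 libraries it did not pass (slope -0.11, limma adjusted p = 0.133). Over 17 libraries BSG, the chaperone of the lactate transporters, fell (slope -0.14, limma adjusted p = 0.00468). Of 8 control genes VHL, which marks HIF proteins for destruction, rose (slope 0.15, limma adjusted p = 0.00505). EPAS1, a HIF subunit, fell at a mean of 1.66 FPKM, but did not pass over 17 libraries (slope -0.19, limma adjusted p = 0.303). HIF1A and MYC did not pass, with slopes of -0.19 and -0.11, and HIF1A was 1.80 (log2) above its flanks at 16 h and 18 h. Of 15 other genes known as HIF-1 targets 0 rose and 4 fell, namely BNIP3, P4HA1, EGLN1 and FAM162A, by 0.44, 0.43, 0.15 and 0.12 on the log2 scale. Over 17 libraries 3 fell, without BNIP3. VEGFA, a HIF-1 target that directs vessel growth, had a slope of 0.19 that did not pass. Among pentose phosphate genes RPE rose (slope 0.29) and RPIA fell by 0.27 on the log2 scale (limma adjusted p = 0.000607 and 0.00153). Over 17 libraries PGLS fell as well. Of 11 genes of pyruvate entry to mitochondria, PDHX and PDP1 fell and 0 rose over 24 libraries, and over 17 PDHX and MPC2 fell and PDHA1 rose.

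The nuclear-encoded subunits of the respiratory chain, taken as the comparison from energy metabolism, declined as well over the 17 libraries. Of 78 genes 5 fell and 1 rose over 24 libraries, and 47 fell and 1 rose over 17, with median slopes of -0.03 and -0.12. Of all genes 8.82% fell over 24 libraries and 12.6% over 17. Among genes whose mean reached 100 FPKM these shares were 14.3% and 37.7%. The members' medians were -0.17 and -0.23. The difference between the lists was not tested.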

How the data were processed

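Per the labels and the study's methods, the authors aligned reads with STAR and quantified them with Cufflinks and Cuffnorm on GRCh37, and deposited FPKM values for 24 samples of 1 cell line. Versions and annotation are not given in the sources used here. A second deposited table holds a score per gene and time point, the authors' Z-score quantile normalized version, used as an alternative. Both tables were mapped through the sample labels, and depth is unknown.

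Symbols were matched for 12123 of 12285 identifiers. Of the 12285 genes, 12253 had a mean of at least 1 FPKM, all 10 members included. limma 3.58.1 (R 4.3.3) was fitted to log2(FPKM + 1), pseudocount 1, with time and a 24 h cosine and sine, trended variance and Benjamini-Hochberg adjustment over all genes. With 1 library per time point the residual spread about this curve is the only error. The JTK statistic used 12 phases and 100000 random orderings of the time points. Both were tested on simulated data. Distances from flanks have no test. Windows came from RefSeq on GRCh38.p14. Transcript GC content came from GENCODE 29 and no coordinates of the deposited genes are given, since builds differ. All members and every detected list gene could be named, with the 5 genes most like the members. The members, lists and tests were chosen with earlier results of these data known, and the 4 libraries that the study did not name, and the GC correction, after the values were seen. The result of 1 gene of the related lists is not reported here.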

Additional observations from a re-analysis of the deposited data

How the results depend on the processing

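The number of members with a decline (5 of 10) was 8 without 16 h and 18 h, 8 over 17 libraries and 2 with quantile normalized FPKM, and 4 to 5 when single libraries were left out. Without 16 h and 18 h and over 17 libraries the slope of PFKL changed sign (-0.048 and -0.033), and with quantile normalized FPKM that of GAPDH did (0.018); none of these 3 passed. The number with a 24 h order by JTK (2) was 1 without 16 h and 18 h and 1 without 6 h and 32 h. It was 0 with a 20 h or 28 h period, the Z-score quantile normalized table, quantile normalized FPKM, upper-quartile scaling, median scaling, the limma F test and 17 libraries, and 0 to 2 when single libraries were left out. The number with a limma wave (0) was 2 without 16 h and 18 h and 0 to 1 when single libraries were left out, GAPDH without 20 h. The number past 1.5-fold at 16 h and 18 h (5) was 1 at 2-fold, 3 with wider flanks and 1 with the GC trend removed, where PFKL changed sign to 0.10. The causes were not tested. Levels and likeness moved by less than their spread. A pseudocount of 0.1 and other filters on mean FPKM changed none of these counts by over 1.5 times. No paired analysis was possible because each time point has 1 sample, which leaves no replicate number to use as a block. Depth is unknown, so counting error cannot be given, and HK2 and PFKL, the lowest members, rest on the fewest reads per base.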

Other observations

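The most alike genes outside the list come from other processes. RPL30, a ribosomal protein of the large subunit, went from 1129 FPKM at 0 h to 931 FPKM at 46 h. MRPL40, of the mitochondrial ribosome, went from 103 to 72.3 FPKM, and ARPC1A, of the actin-branching Arp2/3 complex, from 73.0 to 52.8 FPKM. CBX3, a heterochromatin protein, and H3-3B, a histone H3.3 gene, went from 271 to 223 FPKM and from 390 to 224 FPKM. At 18 h these genes did not move as one: RPL30 was at 1302 FPKM and CBX3 at 356 FPKM, above all their other libraries, while MRPL40 was at 70.8 FPKM, below all of its others.

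Among HIF-1 targets that did not pass the slope test, DDIT4, a growth inhibitor induced by stress, was at 787 FPKM at 46 h against a median of 93.7 FPKM. VEGFA also had its highest library at 46 h, at 108 FPKM, where HK2 was at 14.3 FPKM. DDIT4 was named after its values were seen.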
